A study of Rattus norvegicus with 138 samples.

Results

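Iron pellets and tantalum pellets implanted in rat muscle were compared by the microRNAs (miRNAs) found in serum. The 31 libraries described here are all the serum libraries labelled with an iron (Fe) or a tantalum (Ta) implant; the series holds 107 more from rats with other metals. They were chosen by metal and month label alone: 16 came from rats with Fe and 15 from rats with Ta. Fe had 4 libraries at each of 1, 3, 6 and 12 months (mo) after surgery, and Ta had 4 at 1, 3 and 12 mo and 3 at 6 mo.

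The animals were male Sprague-Dawley rats, given as 3 months old at surgery, and no other age, strain, sex or genotype occurs among them. Every rat, the Ta controls included, carried 2 pellets in each gastrocnemius (calf) muscle, 4 pellets in all, each 1 mm wide and 2 mm long. Ta serves as the control for the operation, being a metal that the study describes as inert in muscle. No group used here is free of a pellet, so each difference is between implanted metals. The remaining 107 libraries came from rats with pellets of aluminium (Al), cobalt (Co), copper (Cu), depleted uranium (DU), nickel (Ni), lead (Pb) or tungsten (W), which entered only as shared estimates of spread and as a further comparison group. The study text describes bleeding of each rat at each month, but the labels do not tie a library to a rat, so libraries of different months may share animals. The p-values below measure the spread between these libraries, which were treated as independent.

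A miRNA is a short RNA that pairs with messenger RNAs mainly through its seed, the bases after its first base, and lowers their translation or stability. miRNAs reach serum inside vesicles, bound to proteins, or from cells that break open, and some mark their source: miR-1, miR-133a and miR-206 are muscle miRNAs, miR-122 is the liver miRNA, and miR-451 is abundant in red blood cells. Iron metal corrodes in tissue, and the body handles the released iron with transferrin, ferritin and the liver hormone hepcidin. In serum, fewer cells releasing a miRNA and less of it released per cell cannot be told apart.

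The sequences of the miRNAs on which the results turn are given first, 5′ to 3′, from RefSeq (assembly GRCr8), with the seed (bases 2 to 8) in capitals. Sequences were found under the same name for 434 of the 471 miRNAs in the table. The miR-30 guide strands, which had positive Fe minus Ta differences at 1 mo, share the seed GUAAACA.
miR-30a-5p: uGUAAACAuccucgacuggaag
miR-30c-5p: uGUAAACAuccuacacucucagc
miR-30e-5p: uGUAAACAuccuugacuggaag
miR-503-5p had no counts with Fe at 3 and 6 mo, and its seed AGCAGCG is close to the AGCAGCA of miR-16-5p, the red-cell miRNA of the same superfamily.
miR-503-5p: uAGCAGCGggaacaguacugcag
miR-16-5p: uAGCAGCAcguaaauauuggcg
Other miRNAs described at 6 or 12 mo have unrelated seeds.
miR-191a-5p: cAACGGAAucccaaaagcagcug
miR-423-5p: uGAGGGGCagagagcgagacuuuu
miR-26a-5p: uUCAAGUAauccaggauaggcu
miR-99b-5p: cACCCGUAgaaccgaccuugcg
The muscle miRNAs miR-1-3p, miR-1b and miR-206-3p share the seed GGAAUGU, and the near identity of miR-1-3p and miR-1b means that reads may have been divided between them.
miR-1-3p: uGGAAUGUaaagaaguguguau
miR-1b: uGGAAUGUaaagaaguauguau
miR-206-3p: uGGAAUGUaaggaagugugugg

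Library totals ran between 77112 and 1922979 counts with Fe, and between 1645 and 2195682 with Ta. Replicate 3 of Ta at 3 mo, with 1645 counts, was the only Fe or Ta library under 20000. In this library miR-451-5p, miR-26a-5p and miR-16-5p took 22.7%, 21.5% and 14.7% of the counts, against at most 1.86%, 1.93% and 0.279% in the other Ta libraries of that month. Values are given with and without the libraries under 20000 counts where this matters. The number of miRNAs with at least 1 count differed in opposite directions between months. At 1 mo it averaged 242 ± 17.3 with Fe and 182 ± 36.6 with Ta (SD, n = 4 each; exact two-sided permutation p = 0.0571, smallest possible 0.0286). At 6 mo the libraries held 100 to 172 with Fe and 168 to 223 with Ta (n = 4 and 3; exact permutation p = 0.114, smallest possible 0.0571), and at 12 mo they were 214.5 ± 11.4 with Fe and 165.5 ± 39.95 with Ta (n = 4 each; exact permutation p = 0.0857). The Benjamini-Hochberg adjusted p over the 4 months was 0.152 at each of these 3 months, so none passed 0.05. At 3 mo the ranges, 79 to 134 with Fe and 36 to 194 with Ta, overlapped (exact permutation p = 0.771). With the libraries of at least 77112 counts thinned to that number, which leaves out the Ta library of 1645 counts, the differences kept these directions: 200 ± 18.5 with Fe against 167 ± 23.8 with Ta at 1 mo, 135 ± 33.5 against 180 ± 15.1 at 6 mo, and 190 ± 2.67 against 157 ± 30.7 at 12 mo. The part of these differences in the results for rarely detected miRNAs was not tested.

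**Figure D1:**
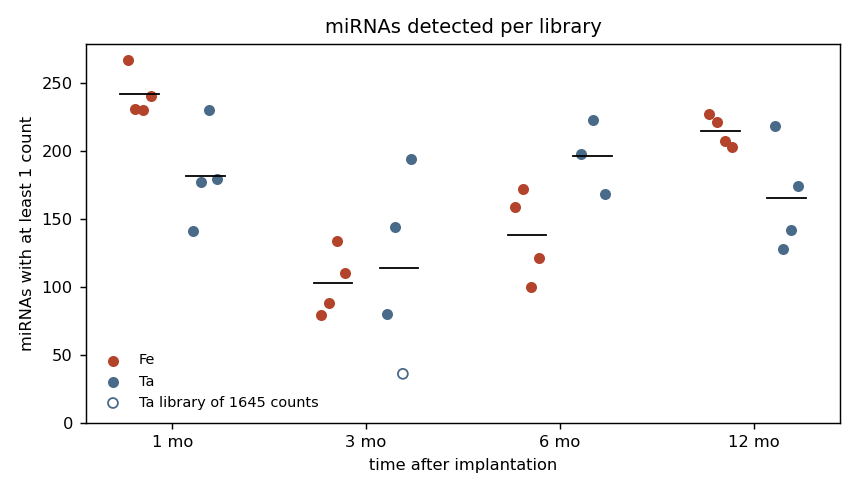
Number of miRNAs with at least 1 count in each serum library (y axis) at 1, 3, 6 and 12 mo (x axis), with Fe left of Ta. Points are libraries, bars are group means, and the open circle is the Ta library of 1645 counts; the Fe mean lies above the Ta mean at 1 and 12 mo (242 against 182, and 214.5 against 165.5) and below it at 6 mo (ranges 100 to 172 against 168 to 223).

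At 1 mo miR-30d-5p, a broadly expressed member of the miR-30 family, rose with Fe, and the other 3 family members tested had differences of the same sign that did not pass. A miRNA was called where its Benjamini-Hochberg adjusted p was under 0.05, and miR-30d-5p was the only one called among 270 tested (0.37%). Its levels, in CPM (library-scaled counts, adjusted for composition), were 4158, 3949, 2612 and 6379 in Fe replicates 1 to 4, against 1956, 782, 1245 and 1615 in Ta replicates 1 to 4. All Fe libraries lay above all Ta libraries, which held for 4.07% of the miRNAs tested. The log2 difference of miR-30d-5p was 1.61 ± 0.37 (SE; edgeR quasi-likelihood adjusted p = 0.0305), and 1.47 ± 0.31 without the small libraries of that month, none of which is Fe or Ta (adjusted p = 0.00823). The call was kept without Fe replicate 3 and lost without each of the other 7 Fe and Ta libraries (log2 difference 1.32 to 1.63, edgeR adjusted p 0.0318 to 0.404). It was also lost in edgeR with relative log expression (RLE) size factors, with Fe and Ta libraries alone, and with adjustment over the 4 months together. Without the low-count filter it was lost too, and edgeR called 6 miRNAs that did not include it. DESeq2 and the fit with a replicate block kept it.

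The other family members tested at 1 mo had the same sign without passing the adjusted threshold. miR-30a-5p, which shares the seed and is abundant in kidney and muscle, had 3722, 1642, 1405 and 5392 CPM with Fe, against 635, 676, 839 and 1333 CPM with Ta, again without overlap. Its log2 difference was 1.80 ± 0.47 (edgeR adjusted p = 0.0584). miR-30c-5p had 2004, 2950, 1734 and 2111 CPM with Fe, against 860, 923, 925 and 248 CPM with Ta, and did not overlap either. Its log2 difference was 1.57 ± 0.66 (edgeR adjusted p = 0.518). miR-30e-5p had 956, 522, 750 and 1836 CPM with Fe, against 183, 571, 270 and 342 CPM with Ta, so that the lowest Fe library lay below the highest Ta library. Its log2 difference was 1.57 ± 0.57 (edgeR adjusted p = 0.518). All 4 tested members had a positive difference and an unadjusted p under 0.05, with a median log2 difference of 1.59. Over all miRNAs tested, 70% had a positive and 29.3% a negative difference, 7.04% were higher and 1.11% lower at unadjusted p under 0.05, and the median log2 difference was 0.45. RLE scaling moved that median by -0.35 and the share with a positive difference to 55.6%.

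Ta stood lowest among the implants for this family at 1 mo. Among the 9 implants at that month, Ta had the lowest mean of all 4 members, and Fe had the highest mean of miR-30a-5p, miR-30c-5p and miR-30e-5p. For miR-30d-5p, Fe averaged 4274 ± 1561 CPM (rank 2), Pb averaged 4692 ± 221 CPM, and Ta averaged 1400 ± 504 CPM (SD, n = 4 each). Against the mean of the 7 metals other than Ta, miR-30d-5p with Fe differed by 0.30 ± 0.27 on the log2 scale (edgeR adjusted p = 1). No miRNA was called in that comparison at 1 mo (0%), and 17 had an unadjusted p under 0.05 in edgeR.

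At 12 mo all 4 family members had a negative difference, with a median log2 difference of -0.90 against 0.09 over all 224 miRNAs tested, of which 46.4% were lower. miR-30d-5p then had 3431, 2735, 3285 and 2655 CPM with Fe, against 3816, 4336, 4673 and 5546 CPM with Ta, so all Fe libraries lay below all Ta libraries. That held for 2.68% of the miRNAs tested at 12 mo. The log2 difference of miR-30d-5p at that month was -0.60 ± 0.65 (edgeR adjusted p = 0.931), well within its error. miR-30a-5p had 2201, 2103, 1650 and 794 CPM with Fe at 12 mo, against 7127, 3088, 2666 and 2546 CPM with Ta, also without overlap (log2 difference -1.19 ± 0.73, edgeR adjusted p = 0.622). Averaged over the 4 months, the log2 differences of the 4 members ran between 0.12 and 0.79, and none was called.

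**Figure D2:**
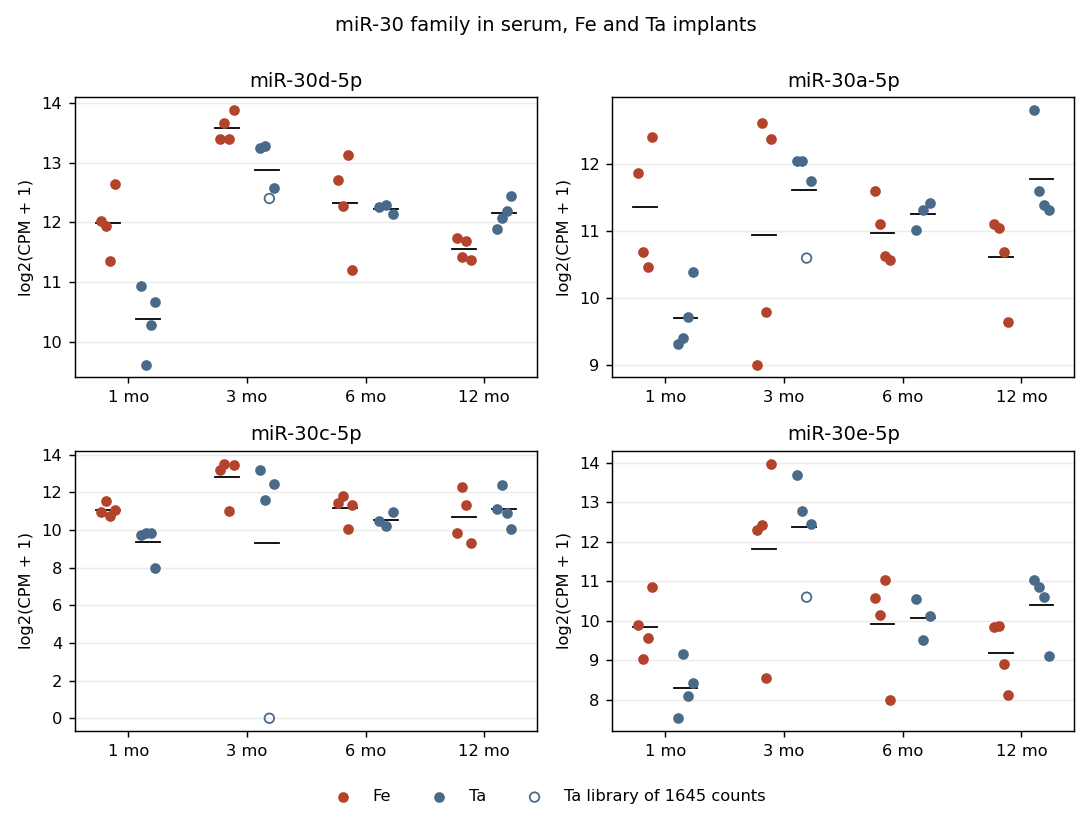
Levels of 4 miR-30 family members (y axes, log2(CPM + 1)) in each serum library at 1, 3, 6 and 12 mo, with Fe left of Ta. Points are libraries, bars are means of the plotted values, and the open circle is the Ta library of 1645 counts; at 1 mo the Fe points of miR-30d-5p, miR-30a-5p and miR-30c-5p lie above all Ta points, and at 12 mo those of miR-30d-5p and miR-30a-5p lie below them.

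Other miRNAs with small p-values at 1 mo were of several kinds. miR-26a-5p, a widely expressed miRNA known to restrain the methyltransferase Ezh2, had 11018, 10583, 16457 and 21651 CPM with Fe, against 6828, 4149, 9809 and 6431 CPM with Ta. The groups did not overlap, and the log2 difference was 1.13 ± 0.45 (edgeR adjusted p = 0.518). miR-21-5p, the miRNA most tied to fibrosis and inflammation, had 3758, 1962, 1769 and 2644 CPM with Fe, against 1136, 1436, 1714 and 1043 CPM with Ta. Those groups did not overlap either, with a log2 difference of 0.93 ± 0.57 (edgeR adjusted p = 0.616). miR-3559-5p was counted in 4 of 4 Fe libraries (79.1, 59.4, 9.08 and 42.1 CPM) and in Ta replicate 2 alone (19.9 CPM; log2 difference 3.07 ± 1.18, edgeR adjusted p = 0.518). Without that Ta library edgeR called it (adjusted p = 0.0118), and it then had no counts with Ta. At 3 mo the order of miR-3559-5p was the reverse, with no counts with Fe and counts in 2 of 4 Ta libraries. The fitted log2 difference was then -10.27 ± 3.79 (edgeR adjusted p = 0.339), a value that depends on how counts of 0 enter the fit.

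Of the miRNAs lower with Fe at 1 mo, those with the 5 smallest p-values rested on few libraries. Replicate 3 of Ta held 892 CPM of miR-9a-5p, 2556 CPM of miR-124-3p and 817 CPM of miR-127-3p, the first pair being brain miRNAs and the third a product of the imprinted Dlk1-Dio3 region. Fe libraries held 32.8 to 65.5 CPM of miR-127-3p, against 51.3 to 78.6 CPM in the other Ta libraries, in which miR-9a-5p and miR-124-3p had no counts. Without Ta replicate 3 the log2 difference of miR-127-3p was -0.48, against -2.29 with it. miR-34c-3p and miR-18a-5p had counts in only 1 Ta library each and in no Fe library.

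At 3 mo no miRNA was called among 167 tested (0%), and 21 (12.6%) had an unadjusted p under 0.05, all of them lower with Fe; 66.5% of those tested had a negative difference. DESeq2 called 13 miRNAs at this month. The leading p-values, of miR-451-5p and miR-16-5p, rested on the Ta library of 1645 counts. miR-451-5p, the Dicer-independent miRNA of red-cell maturation, had 3496, 656, 16421 and 171 CPM with Fe, against 7793, 18905, 289036 and 9277 CPM with Ta. Its log2 difference was -3.90 ± 1.25 (edgeR adjusted p = 0.297), and without the small libraries it was -0.60 ± 1.07 (adjusted p = 1). Without Fe replicate 3, the highest Fe library, edgeR called it (adjusted p = 0.0165, log2 difference -6.58). miR-16-5p had 2282, 100, 520 and 593 CPM with Fe, against 759, 600, 187024 and 3186 CPM with Ta, and its log2 difference of -5.76 ± 1.90 became -0.35 ± 1.84 without the small libraries. miR-26a-5p changed sign with that library, at -2.13 ± 0.95 with it and 0.47 ± 0.65 without it. miR-7a-5p had no counts with Fe and counts in 1 Ta library (log2 difference -9.80 ± 3.77, edgeR adjusted p = 0.339). Among miRNAs higher with Fe, miR-17-5p and let-7c-5p differed by 4.38 ± 3.18 and 1.10 ± 0.82 on the log2 scale (edgeR adjusted p = 0.816 each). Without the small libraries 9 miRNAs had an unadjusted p under 0.05 among 180 tested, not all of them among the 21, and none was called.

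The only miRNA with all Fe libraries above all Ta libraries at 3 mo was miR-30d-5p (0.599% of those tested). It had 10850, 13072, 10821 and 15115 CPM with Fe, against 9735, 10010, 5410 and 6103 CPM with Ta. The log2 difference was 0.68 ± 0.92 (edgeR adjusted p = 0.973), within its error.

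miR-503-5p, made from an X-linked cluster with miR-322 and known to slow the cell cycle and to be induced in muscle differentiation, had no counts in any Fe library at 3 and 6 mo. At 3 mo it had 1735 CPM in Ta replicate 1 and 898 CPM in Ta replicate 4, with no counts in the other two, and so the groups overlapped at 0. At 6 mo it had 122, 271 and 510 CPM in the 3 Ta libraries, all above the 4 Fe libraries, and 6.99% of the 272 miRNAs tested had all Fe libraries below all Ta libraries. Against a floor of 3 counts over the Fe group, miR-503-5p was at least 356-fold lower with Fe at 3 mo and at least 379-fold lower at 6 mo, on means that include the empty Ta libraries. At 1 mo its levels were 77.2, 609, 198 and 119 CPM with Fe, against 188, 197, 302 and 188 CPM with Ta. At 12 mo they were 59.4, 0, 57.9 and 444 CPM with Fe, against 0, 0, 369 and 157 CPM with Ta. The groups overlapped at both of those months, with log2 differences of 0.20 ± 0.68 and 0.09 ± 1.74.

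miR-503-5p was the only miRNA called in the average of the 4 monthly differences, among 320 tested (0.312%). It fell with Fe, by a fitted log2 difference of -5.75 ± 1.26 (edgeR adjusted p = 0.0040; 0.00639 without the small libraries), a value that depends on how counts of 0 enter the fit. The adjusted p stayed between 0.00233 and 0.0128 when each of the 31 Fe and Ta libraries was left out in turn. It also changed between months (edgeR adjusted p = 0.0240 for the change of the Fe minus Ta difference; 0.0385 without the small libraries). That second call was lost, at an adjusted p of 0.0515 to 0.109, without Fe replicate 1 or 3 at 3 mo, Fe replicate 1 or 3 at 6 mo, Fe replicate 4 or Ta replicate 3 at 12 mo, or Ta replicate 1 at 1 mo. Averaged over 1, 6 and 12 mo alone the log2 difference was -3.65 ± 1.25 (edgeR adjusted p = 0.642), and no miRNA was called. miR-503-5p had counts in 7 of 16 Fe libraries, 11 of 15 Ta libraries and 66 of 107 libraries of the other metals. Fe was not alone in its absence, since no DU library at 3 or 6 mo and no Co library at 3 mo held a count. Set against the metals other than Ta, edgeR called no miRNA lower with Fe at any month or in the average. The fall of miR-503-5p was thus called against Ta only.

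Of the listed cluster members, miR-503-5p alone was called by edgeR in the average, and the others varied. Besides miR-503-5p, DESeq2 called miR-542-5p at 1 mo, miR-542-3p at 6 and 12 mo, and miR-450b-3p at 12 mo. Its calls in the average included miR-450a-5p. Of all miRNAs that passed the low-count filter, DESeq2 called 4 of 270 at 1 mo and 20 of 272 at 6 mo. At 12 mo it called 14 of 224, and in the average 46 of 320. Without the low-count filter edgeR called miR-542-3p and miR-542-5p at 1 mo. All Fe libraries then lay above all Ta libraries for miR-542-3p, which held for 4.07% of the miRNAs tested. At 6 mo miR-542-3p had no counts with Fe, and at 12 mo none with Ta. miR-322-5p, the guide strand of the adjacent hairpin, did not pass the low-count filter at 6 mo, with no counts with Fe, against 246.5, 60.6 and 0 CPM with Ta (at least 129-fold lower against the floor of 3 counts). miR-503-3p, the opposite strand of miR-503-5p, had 0, 0, 189 and 0 CPM with Fe at 3 mo, against 121, 509, 0 and 2273 CPM with Ta. Those groups overlapped (log2 difference -3.95 ± 2.69, edgeR adjusted p = 0.802), and at 6 mo its log2 difference was 0.43 ± 1.73. miR-322-3p, from the adjacent hairpin, had 0, 0, 1166 and 1603 CPM with Fe at 3 mo, against 0, 3513, 0 and 3827 CPM with Ta. At 6 mo miR-322-3p had 2211, 731, 2031 and 1296 CPM with Fe, against 628, 1835 and 867 CPM with Ta, with overlap (log2 difference 0.50 ± 1.13). Of the 12 miRNAs listed from the cluster, 12 were tested in the average over months: 4 had a positive and 8 a negative difference, with a median log2 difference of -0.70 against -0.03 over all tested. By month, 11 of 12 tested were positive at 1 mo, 0 of 7 at 3 mo, 2 of 10 at 6 mo and 7 of 10 at 12 mo. The median log2 differences of the cluster at those months were 0.69, -3.85, -1.39 and 0.23, against 0.45, -0.74, -0.10 and 0.09 over all miRNAs tested. Without the small libraries the cluster median at 3 mo was -1.97.

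**Figure D3:**
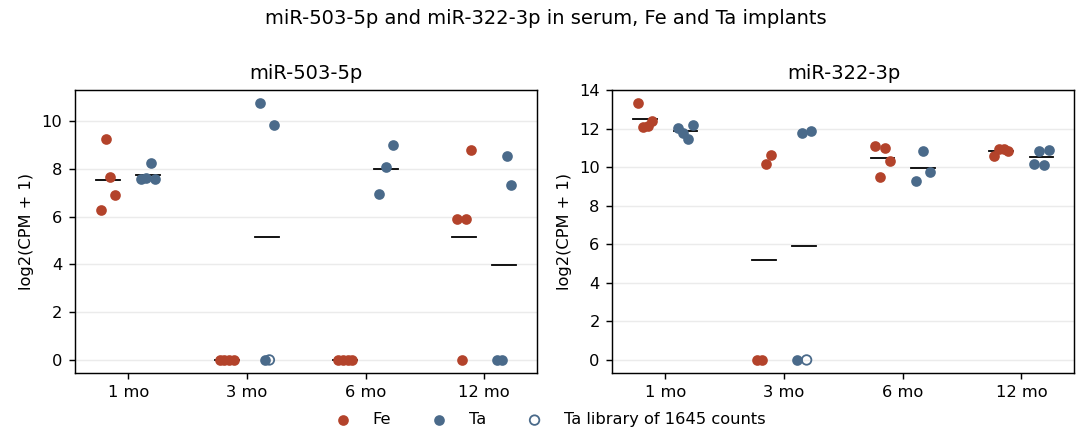
Levels of miR-503-5p and its cluster neighbour miR-322-3p (y axes, log2(CPM + 1)) in each serum library at 1, 3, 6 and 12 mo, with Fe left of Ta. Points are libraries, bars are means of the plotted values, and the open circle is the Ta library of 1645 counts; miR-503-5p is at 0 in all Fe libraries at 3 and 6 mo and has counts in 2 and 3 Ta libraries at those months.

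At 6 mo no miRNA was called among 272 tested (0%). An unadjusted p under 0.05 was reached by 2 miRNAs higher (0.735%) and 25 lower (9.19%) with Fe, and DESeq2 called 20. Negative differences made up 52.2% of those tested. After miR-503-5p the smallest p was that of miR-29b-3p, a repressor of collagen genes. It had 0, 0, 0 and 21.3 CPM with Fe, against 148, 650 and 637 CPM with Ta, with no overlap and a log2 difference of -6.47 ± 2.08 (edgeR adjusted p = 0.382). Without Fe replicate 4, the only Fe library with counts, edgeR called it (adjusted p = 0.0332; over all libraries left out in turn, up to 0.591), with a fitted difference of -12.55 that depends on how counts of 0 enter the fit. DESeq2 called it with all libraries. Pb libraries at 6 mo also had no counts of miR-29b-3p. Its family members miR-29a-3p and miR-29c-3p, which share the seed AGCACCA, had log2 differences of -0.77 ± 1.00 and 0.10 ± 1.87.

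Several abundant serum miRNAs had lower levels with Fe at 6 mo, without passing the adjusted threshold. miR-423-5p, often used as a circulating reference or heart failure marker in people, had 2450, 4234, 4972 and 2992 CPM with Fe, against 11658, 30108 and 7082 CPM with Ta. All Fe libraries lay below all Ta libraries, and the log2 difference was -2.15 ± 0.78 (edgeR adjusted p = 0.382), or -1.02 without Ta replicate 2. miR-423-3p, the opposite strand of the same hairpin, had 922, 1296, 434 and 647 CPM with Fe, against 2463, 2228 and 2536 CPM with Ta. It showed no overlap either (log2 difference -1.55 ± 1.15, edgeR adjusted p = 0.662). miR-191a-5p, a widely expressed miRNA, made up 8.54%, 18.1%, 5.44% and 18.4% of the Fe libraries, against 39.5%, 34.6% and 17.3% of the Ta libraries. These shares overlapped, and the log2 difference was -1.54 ± 0.82 (edgeR adjusted p = 0.394). miR-146b-5p, an inhibitor of inflammatory signalling, had 1326, 2427, 790 and 1898 CPM with Fe, against 4356, 11845 and 3229 CPM with Ta, without overlap (log2 difference -2.01 ± 0.93, edgeR adjusted p = 0.382).

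Of the miRNAs higher with Fe at 6 mo, those with the 5 smallest p-values were seen in 1 or 2 Fe libraries and in no Ta library. They were miR-382-5p (359 CPM in replicate 3), miR-425-3p (178 CPM in replicate 2), miR-674-5p (102 CPM in replicate 4), miR-193a-5p (65.7 and 81.8 CPM) and miR-499-5p (85.7 and 73.4 CPM), the last a miRNA of slow muscle and heart. Among those lower with Fe, miR-24-2-5p and miR-374-5p had no counts in Fe libraries and were counted in 2 of the 3 Ta libraries. The 6-month Fe libraries also held fewer miRNAs than the Ta libraries, as given above.

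At 12 mo miR-191a-5p and both strands of the miR-423 hairpin had positive differences. No miRNA was called among the 224 tested (0%), with 24 higher (10.7%) and 5 lower (2.23%) at an unadjusted p under 0.05, and DESeq2 called 14. Without the library under 20000 counts at that month, which is a W library and touches only the spread, the scaling and the filter, 4 were called, all higher with Fe. They were miR-191a-5p, miR-423-3p, miR-26a-5p and miR-378b. In all, 9.82% of the miRNAs tested had all Fe libraries above all Ta libraries.

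miR-191a-5p took 27.6%, 27.3%, 16.1% and 9.53% of the counts in Fe replicates 1 to 4 at 12 mo, against 3.76%, 3.73%, 1.84% and 1.56% in the Ta replicates. Every Fe share was above every Ta share. The log2 difference was 3.26 ± 1.00 (edgeR adjusted p = 0.214), and 3.36 ± 0.92 without the small library (adjusted p = 0.0499).

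Both strands of the miR-423 hairpin lay on the same side at 12 mo. miR-423-3p had 1926, 1173, 1408 and 1733 CPM with Fe, against 365, 69.4, 613 and 452 CPM with Ta, without overlap. Its log2 difference was 2.06 ± 0.65 (edgeR adjusted p = 0.214), and 2.28 ± 0.56 without the small library (adjusted p = 0.0472). miR-423-5p had 8390, 4118, 2946 and 7586 CPM with Fe, against 3063, 575, 979 and 2339 CPM with Ta. Here the third Fe library lay just below the highest Ta library, and the log2 difference was 1.73 ± 0.63 (edgeR adjusted p = 0.239).

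miR-26a-5p had 15241, 33617, 20694 and 7828 CPM with Fe at 12 mo, against 6705, 4033, 7765 and 6194 CPM with Ta. The groups did not overlap, by a narrow margin. Its log2 difference was 1.65 ± 0.53 (edgeR adjusted p = 0.214), and 1.74 ± 0.44 without the small library (adjusted p = 0.0472). miR-99b-5p, of the miR-99/100 family known to target mTOR, had 2488, 20710, 2977 and 2138 CPM with Fe, against 1796, 2005, 1059 and 1468 CPM with Ta. Replicate 2 carried most of the Fe mean, and the log2 difference was 2.16 ± 0.76 (edgeR adjusted p = 0.239). miR-378b was low but present in all Fe libraries, at 27.2, 31.4, 33.1 and 33.3 CPM, against no counts in the 4 Ta libraries. Against a floor of 3 counts over the Ta group it was at least 31.8-fold higher with Fe (edgeR adjusted p = 0.214, and 0.0499 without the small library). At 1 mo the order of miR-378b was the reverse, with 0, 0, 4.03 and 0 CPM with Fe against 6.98, 42.2, 25.2 and 38.5 CPM with Ta, the only miRNA then with all Fe libraries below all Ta libraries (0.37% of those tested; edgeR adjusted p = 0.518). miR-6328 had 52.0, 12.6, 49.6 and 8.33 CPM with Fe at 12 mo, against no counts with Ta (at least 31.2-fold higher, edgeR adjusted p = 0.239).

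Fewer miRNAs were lower with Fe at 12 mo. miR-194-5p, a liver and intestinal miRNA, had 49.5, 12.6, 93.0 and 72.2 CPM with Fe, against 183, 3232, 526 and 308 CPM with Ta, without overlap (log2 difference -4.22 ± 1.52, edgeR adjusted p = 0.239). Without Ta replicate 2 it was -2.28, and DESeq2 called this miRNA. miR-196a-5p, encoded in the HOX clusters, had no counts with Fe, against 25.2, 151, 86.1 and 0 CPM with Ta. miR-19b-3p, of the miR-17-92 cluster, and miR-382-5p, of the Dlk1-Dio3 region, also had no counts with Fe and had counts in 2 Ta libraries each (edgeR adjusted p = 0.268 and 0.294).

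Ta ranked last or next to last among the implants at 12 mo for 3 of these miRNAs. Among the 8 implants sampled at 12 mo, miR-191a-5p averaged 254203 CPM with Fe (rank 2, below DU), and 26589 CPM with Ta (rank 8). For miR-423-3p the mean was 1560 CPM with Fe (rank 3) and 375 CPM with Ta (rank 7). For miR-26a-5p it was 19345 CPM with Fe (rank 1) and 6174 CPM with Ta (rank 8). Ta, W and Co held the 3 lowest means of miR-191a-5p, miR-423-3p and miR-423-5p. Fe set against the metals other than Ta gave log2 differences of 0.81 ± 0.65 for miR-191a-5p, 0.66 ± 0.45 for miR-423-3p, 0.93 ± 0.37 for miR-26a-5p and 1.50 ± 0.50 for miR-99b-5p. The smallest edgeR adjusted p among these 4 was 0.330, that of miR-99b-5p, and no miRNA was called in that comparison (0%; 16 had an unadjusted p under 0.05).

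At 6 mo it was Ta that had the highest mean among 9 implants of miR-423-5p (3662 CPM with Fe, rank 9; 16283 CPM with Ta), miR-423-3p (825 CPM with Fe, rank 8; 2409 CPM with Ta) and miR-191a-5p (107935 CPM with Fe, rank 8; 314763 CPM with Ta). Fe set against the other metals differed there by -0.49 ± 0.56, -0.35 ± 0.84 and -0.85 ± 0.62 on the log2 scale, none called.

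The change of the Fe minus Ta difference between months was tested directly, and 2 of 320 miRNAs were called (0.625%), miR-26a-5p and miR-503-5p. The log2 differences of miR-26a-5p were 1.13, -2.13, -0.45 and 1.65 at 1, 3, 6 and 12 mo (edgeR adjusted p = 0.0236). Without the small libraries the value at 3 mo was 0.47 and the call was lost (adjusted p = 0.409); the average of miR-26a-5p over months was then 0.73 ± 0.28 (adjusted p = 0.242), against -0.10 ± 0.33 with all libraries. The call of miR-26a-5p was also lost, at an adjusted p of 0.0516 to 0.109, without Fe replicate 1 or 3 at 3 or 6 mo, Ta replicate 3 at 12 mo or Ta replicate 1 at 1 mo. With the replicate number as a block the adjusted p was 0.0677 for both miR-26a-5p and miR-503-5p. For miR-423-5p the differences were 0.03, 0.72, -2.15 and 1.73 (adjusted p = 0.0565), and without the small libraries it was called (adjusted p = 0.0341). It was also called without Fe replicate 3 at 1 mo, Fe replicate 4 at 3 mo or Ta replicate 1 at 12 mo, and its adjusted p was 0.306 without Ta replicate 2 at 6 mo. For miR-191a-5p they were 0.89, -0.65, -1.54 and 3.26 (adjusted p = 0.0792; 0.123 without the small libraries; 0.0427 without Fe replicate 3 at 1 mo).

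**Figure D4:**
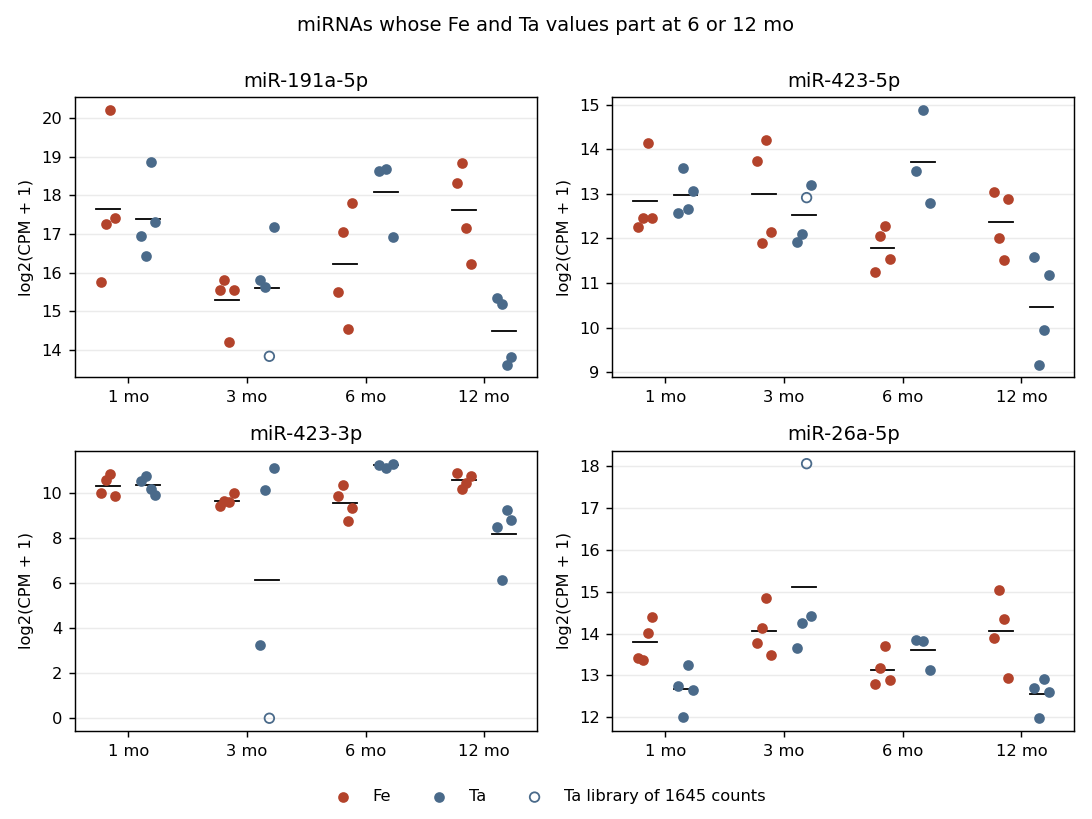
Levels of miR-191a-5p, miR-423-5p, miR-423-3p and miR-26a-5p (y axes, log2(CPM + 1)) in each serum library at 1, 3, 6 and 12 mo, with Fe left of Ta. Points are libraries, bars are means of the plotted values, and the open circle is the Ta library of 1645 counts; the Fe points of both miR-423 strands lie below all Ta points at 6 mo, and those of miR-191a-5p, miR-423-3p and miR-26a-5p lie above all Ta points at 12 mo.

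The muscle miRNAs, made in the tissue that holds the pellets, mostly had positive differences at 1, 3 and 6 mo and negative ones at 12 mo, with wide spread and none called by edgeR. miR-1-3p, the main miRNA of skeletal and heart muscle, had 236, 2478, 400 and 268 CPM with Fe at 1 mo, against 181, 46.9, 30.2 and 51.3 CPM with Ta. All Fe libraries lay above all Ta libraries, with replicate 2 of Fe far above the rest, and the log2 difference was 3.44 ± 1.63 (edgeR adjusted p = 0.518). At 6 mo miR-1-3p had 5493, 1116, 3374 and 226 CPM with Fe, against 494, 109 and 1471 CPM with Ta, overlapping (1.89 ± 2.11 on the log2 scale). At 12 mo it had 86.7, 6061, 143 and 150 CPM with Fe, against 17175, 1469, 0 and 519 CPM with Ta, and the groups overlapped again (-1.57 ± 1.48).

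miR-206-3p, a miRNA of regenerating and slow muscle fibres, had 4173, 2829, 14595 and 926 CPM with Fe at 6 mo, against 726, 388 and 2854 CPM with Ta, with overlap (log2 difference 2.09 ± 1.40, edgeR adjusted p = 0.564). At 12 mo it had 168, 267, 554 and 564 CPM with Fe, against 6251, 2188, 685 and 1257 CPM with Ta, so that all Fe libraries lay below all Ta libraries (log2 difference -2.74 ± 1.29, edgeR adjusted p = 0.341). Without Ta replicate 1 it was -1.42. miR-133a-3p, cut from the same transcripts as miR-1, was counted in 9 of 16 Fe libraries and 5 of 15 Ta libraries. Its average over months was 3.87 ± 1.55 on the log2 scale (edgeR adjusted p = 0.251), or 1.92 without Fe replicate 3 at 3 mo. At 3 mo miR-133a-3p had counts in 1 of 4 Fe libraries and in no Ta library. miR-1-3p then had counts in 2 of 4 libraries with each metal, and miR-206-3p differed by 0.60 ± 1.69 on the log2 scale. Of the 8 listed muscle miRNAs, 3 of 3 tested were positive at 1 mo, 3 of 3 at 3 mo, 4 of 6 at 6 mo and 1 of 5 at 12 mo, with median log2 differences of 3.44, 3.02, 1.20 and -0.90. Over all miRNAs tested, the shares with a positive difference at those months were 70%, 31.7%, 39.3% and 52.7%, and edgeR called no muscle miRNA. DESeq2 called miR-133a-3p at 1 mo, at 3 mo and in the average, and miR-499-5p at 6 mo. Of all miRNAs that passed the low-count filter, it called 4 of 270 at 1 mo and 13 of 167 at 3 mo. At 6 mo it called 20 of 272, and in the average 46 of 320. Without the low-count filter edgeR called miR-1-3p and miR-133a-3p at 1 mo.

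**Figure D5:**
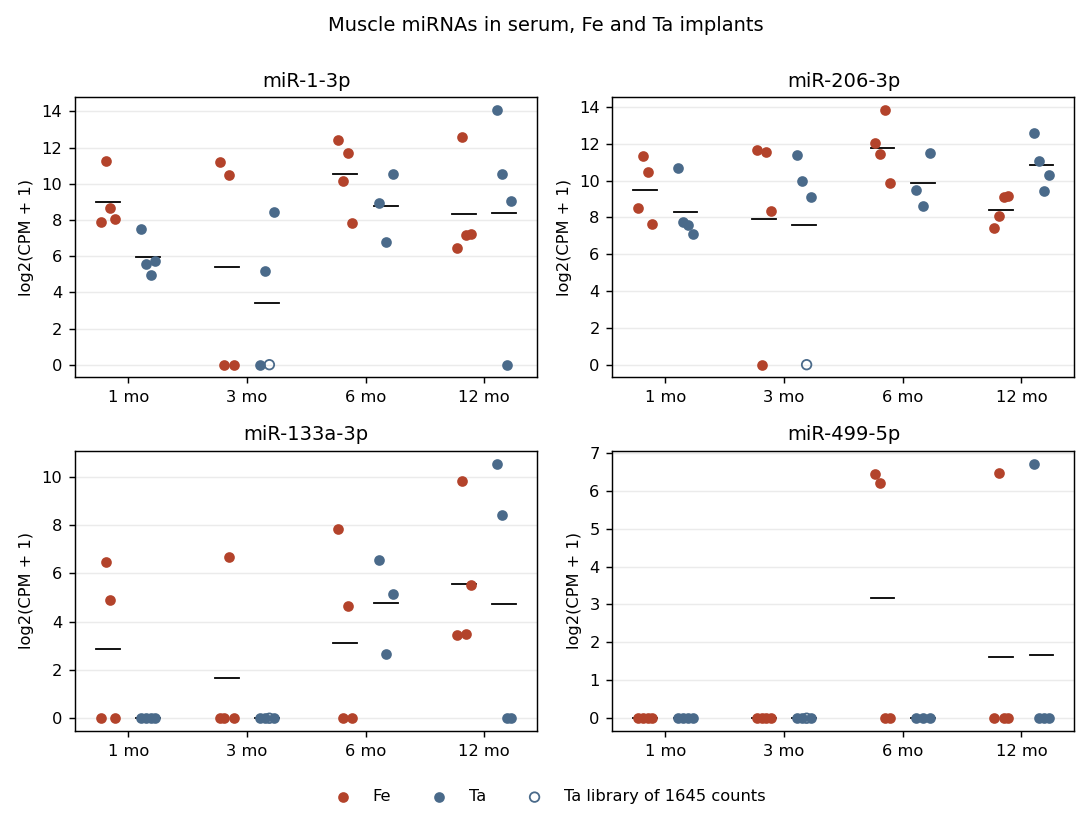
Levels of miR-1-3p, miR-206-3p, miR-133a-3p and miR-499-5p (y axes, log2(CPM + 1)) in each serum library at 1, 3, 6 and 12 mo, with Fe left of Ta. Points are libraries, bars are means of the plotted values, and the open circle is the Ta library of 1645 counts; the Fe points of miR-1-3p lie above all Ta points at 1 mo, and those of miR-206-3p lie below all Ta points at 12 mo.

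The let-7 family, growth-restraining miRNAs with the seed GAGGUAG, held small differences of the same sign at 3 and 6 mo. At 6 mo 9 of 9 members were positive, with a median log2 difference of 0.70, and let-7a-5p, let-7d-5p, let-7f-5p and let-7g-5p had all Fe libraries above all Ta libraries, which 2.21% of the miRNAs tested had. let-7g-5p had 26615, 21988, 14671 and 15602 CPM with Fe, against 6478, 2365 and 9904 CPM with Ta (log2 difference 1.66 ± 0.87, edgeR unadjusted p = 0.0627). At 3 mo 9 of 9 were positive with a median of 0.34, at 1 mo 7 of 9 with a median of 0.48, and at 12 mo 2 of 9 with a median of -0.62. Over all miRNAs tested at 1, 3, 6 and 12 mo, 70%, 31.7%, 39.3% and 52.7% were positive, with medians of 0.45, -0.74, -0.10 and 0.09. The let-7 values at 1 mo thus lay near those of all miRNAs. No let-7 miRNA was called by edgeR at any month or in the average.

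Blood and liver miRNAs gave no call in the edgeR comparisons of Fe with Ta by month or averaged. miR-122-5p, the miRNA of hepatocytes, had 6251 to 59865 CPM with Fe and 4406 to 41275 CPM with Ta at 1 mo, and 34900 to 217811 CPM with Fe and 74898 to 217753 CPM with Ta at 12 mo. The ranges overlapped at these and the other months, and the average over months differed by 0.18 ± 0.43 on the log2 scale, or 0.69 without Ta replicate 2 at 3 mo. Of 6 hepatocyte-list miRNAs tested in the average, miR-122-5p alone was positive and 5 were negative, 2 with an unadjusted edgeR p under 0.05. Their median was -0.87 (-0.82 without the small libraries), against -0.03 over all miRNAs tested. At 6 mo miR-192-5p of that list had 12662 to 42665 CPM with Fe, against 47510 to 95791 CPM with Ta. There all Fe libraries lay below all Ta libraries, as for 6.99% of those tested. Of the 9 red-cell miRNAs 8 were tested at 3 mo, and 6 were lower with Fe with a median of -3.02, which was -0.84 without the small libraries. Their summed level at that month was 18010 to 33480 CPM with Fe and 31720 to 480700 CPM with Ta, or up to 43690 CPM in the Ta libraries over 20000 counts. At 1, 6 and 12 mo the median log2 differences of the red-cell list were 0.31, -0.17 and -0.33. For the platelet list they were 0.69, -1.71, 0.27 and -0.11 over the 4 months, for the leukocyte list 0.36, -0.88, -0.01 and -0.03, and for the hepatocyte list 0.48, -1.19, -1.39 and -0.31. The medians over all miRNAs tested were 0.45, -0.74, -0.10 and 0.09. At 3 mo DESeq2 called miR-144-5p (red-cell list), miR-122-3p (hepatocyte list), miR-199a-3p (platelet list) and miR-146b-5p (leukocyte list). At 12 mo DESeq2 called miR-194-5p of the hepatocyte list. Its calls in the average included miR-16-5p, miR-144-5p, miR-122-3p and miR-199a-5p. With RLE size factors, or without the low-count filter, edgeR called miR-451-5p and miR-16-5p at 3 mo, the miRNAs that rested on the Ta library of 1645 counts. Without Fe replicate 2 at 6 mo it called miR-122-3p in the average (adjusted p = 0.0447). miR-223-3p, the myeloid and platelet miRNA, had 131 to 413 CPM with Fe and 17.1 to 461 CPM with Ta at 1 mo, overlapping as at the other months.

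Of 16 miRNAs listed for iron handling, that is, known regulators of transferrin receptor, ferritin, hepcidin signalling or iron export or miRNAs known to respond to iron and hypoxia, 14, 10, 14 and 12 were tested at 1, 3, 6 and 12 mo. Positive differences were found for 11, 4, 7 and 5 of them, with median log2 differences of 0.80, -0.87, 0.17 and -0.27, and edgeR called none. Over all miRNAs tested, 70%, 31.7%, 39.3% and 52.7% were positive at those months, with medians of 0.45, -0.74, -0.10 and 0.09. DESeq2 called miR-194-5p at 12 mo, and its calls in the average included miR-16-5p and miR-195-5p. With RLE size factors or without the low-count filter, edgeR called miR-16-5p at 3 mo. miR-152-3p, a member of the miR-148 family, came closest at 1 mo. It had 2091, 1306, 829 and 1673 CPM with Fe, against 363, 640, 902 and 931 CPM with Ta, overlapping (log2 difference 1.06 ± 0.43, edgeR adjusted p = 0.518). miR-210-3p, the hypoxia miRNA that represses the iron-sulphur scaffold ISCU, had no counts in Fe or Ta libraries at 6 mo, and at 1 mo it had 5.04 CPM in Ta replicate 3 alone.

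The lists for inflammation, fibrosis and oxidative stress gave no call in edgeR. DESeq2 called miR-146b-5p (inflammation) and miR-214-3p (fibrosis) at 3 mo, and miR-29b-3p (fibrosis) at 6 mo. In the average its calls included miR-214-3p, miR-200b-3p and miR-199a-5p (fibrosis) and miR-200c-3p (oxidative stress). Without Fe replicate 3 at 3 mo, edgeR called miR-29b-3p in the average. For inflammation the median log2 differences were 0.37, -0.18, 0.13 and -0.71 at 1, 3, 6 and 12 mo. For fibrosis and matrix they were 0.29, -1.37, -0.87 and 0.20, and for p53 and oxidative stress 0.46, -0.78, 0.00 and -0.16. Medians over all miRNAs tested at those months were 0.45, -0.74, -0.10 and 0.09. miR-146a-5p, which dampens NF-kB signalling, had 1069, 2860, 7879 and 2009 CPM with Fe at 6 mo, against 7873, 11330 and 3364 CPM with Ta, overlapping (log2 difference -1.12 ± 0.76, edgeR adjusted p = 0.574).

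In the average over the 4 months, 5 miRNAs were higher and 25 lower with Fe at an unadjusted p under 0.05 (1.56% and 7.81% of those tested), and 46.9% had a positive and 51.9% a negative difference. Next to miR-503-5p stood miRNAs that many libraries lacked. miR-3068-5p had counts in 4 of 16 Fe libraries and in no Ta library, against 11 of 107 libraries of the other metals. miR-429, of the epithelial miR-200 family, had counts in 8 of 16 Fe libraries, 4 of 15 Ta libraries and 41 of 107 others. Their adjusted p was 0.122 each in edgeR. Among those lower with Fe, miR-24-2-5p, miR-144-5p, miR-455-3p and miR-125a-3p (edgeR adjusted p = 0.122 each) had no counts in Fe libraries at 3 and 6 mo. DESeq2 called 46 miRNAs in the average. Those named by list were taken from part of these calls, so other list members may have been called.

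Set against the other metals instead of Ta, Fe gave 7 called miRNAs in the average over months (2.19%), all higher with Fe, 2 at 3 mo (1.2%) and 10 at 6 mo (3.68%). In each of these 19 calls at least 1 group of the other metals had no counts of the miRNA at all. Both miRNAs called at 3 mo, miR-872-3p and miR-19b-3p, and 7 of the 10 called at 6 mo had all their Fe counts in 1 library. In the other 3 at 6 mo, miR-500-3p, miR-211-3p and miR-193a-5p, 1 library held 57.9% to 92.3% of the Fe counts. No fold is given for them, since it would depend on how counts of 0 are treated. For the 7 called in the average, 1 library held 25.6% (miR-450b-5p) to 82.8% (miR-429) of the Fe counts. Each of these 7 lost its call in at least 1 of the 16 fits that left out 1 Fe library.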

How the data were processed

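Raw miRNA read counts per library were used as deposited by the authors in 1 table of 471 miRNAs. Per the submitters' processing notes the genome build was Rnor_6.0. Aligner, counter and miRNA annotation: not given in the sources used here. Libraries were grouped by metal and month from the labels. Counts were fitted with edgeR 4.0.16 (R 4.3.3; quasi-likelihood test, TMM scaling, filterByExpr with a minimum count of 10 and total of 15, Benjamini-Hochberg adjustment over all miRNAs tested, threshold 0.05), with all metals of a month sharing the spread, and with all 138 libraries in 35 groups for the average over months and the change between months. CPM are counts scaled by library size and TMM factor. The SE of an edgeR log2 difference is its absolute value divided by the square root of the F statistic, not a separately fitted error. Where a group had no counts, this SE also depends on how counts of 0 enter the fit. Floors rest on 3 counts over a group and cover counting error only. Library measures were compared by exact two-sided permutation tests. Scripts were tested on simulated data.

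The miRNAs set to be named were those called, a fixed set of tissue miRNAs, and members of the lists where a list is described. With them were the 5 with the smallest p in each direction at each month and the 5 of the change between months. The 10 with the smallest p in each direction in the average were also set. Not every miRNA so chosen is described, such as miR-32-5p, miR-802-5p and miR-148a-5p in the average. Other miRNAs, such as those whose groups do not overlap, were named after their values were seen. The members and lists were chosen with earlier results of these data known. Same-numbered Fe and Ta libraries did not deviate together (r between -0.176 and 0.278), so the numbers were not taken as pairs. No pair of Fe or Ta libraries was a duplicate (highest r 0.9297). Alternatives were DESeq2 1.42.0, RLE size factors, no low-count filter, Fe and Ta libraries alone, a replicate block, and leaving out libraries; those for the comparison with other metals and for the library measures were chosen after seeing the data.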

Additional observations from a re-analysis of the deposited data

Results flagged for a closer look

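In 9 of 168 groups of 4 libraries tested, 1 library stood apart from the other 3 (Dixon's test on log2 CPM); chance flags about 1 in 20 such groups. With Fe at 1 mo, replicate 2 held 2314 CPM of the muscle miRNA miR-1b, replicate 4 held 131 CPM of miR-223-3p, and replicate 3 held 17932 CPM of miR-423-5p. With Ta at 1 mo, replicate 3 held 817 CPM of miR-127-3p and 302 CPM of miR-503-5p. Replicate 3 of Fe at 3 mo was low in miR-191a-5p (19106 CPM) and in miR-223-3p (299 CPM). Replicate 2 of Fe at 12 mo was high in miR-1-3p (6061 CPM) and in miR-99b-5p (20710 CPM).

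The Fe minus Ta difference was called as changing between months for miR-26a-5p (edgeR adjusted p = 0.0236) and miR-503-5p (edgeR adjusted p = 0.024). Both calls were lost with Fe and Ta libraries alone and with the replicate block. Each was lost in 7 of the 31 fits that left out 1 library. The call of miR-26a-5p was also lost without the small libraries.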

How the results depend on the processing

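Counts of called miRNAs depended on the tool more than on other settings in the average over months, where DESeq2 called 46 against 1 in edgeR. DESeq2 called 4, 13, 20 and 14 at 1, 3, 6 and 12 mo and 6 for the change between months. RLE size factors gave 0 calls at 1 mo and 3 at 3 mo. Without the low-count filter there were 6, 3, 1 and 1 calls at the 4 months, 5 for the change, and 25, 26, 19 and 17 for Fe against the other metals. Fe and Ta libraries alone gave no call at 1 mo (0), 1 at 12 mo and 0 for the change. Adjustment over the 4 months together left 0 at 1 mo. Without libraries under 20000 counts there were 4 calls at 12 mo, and 0 for Fe against the other metals at 3 mo. Averaging 1, 6 and 12 mo left 0.

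The replicate block gave 1, 0, 0 and 0 calls by month, 1 in the average and 0 for the change.

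Leaving out 1 library gave 0 to 1 calls at 1, 3 and 6 mo, 0 at 12 mo, 1 to 4 in the average (2 without Fe replicate 3 at 3 mo, 4 without Fe replicate 2 at 6 mo) and 0 to 5 for the change. For Fe against the other metals it gave 3 to 5 calls (3 mo), 4 to 12 calls (6 mo) and 4 to 9 calls (average). The difference in miRNAs detected ran between 46.7 and 76.3 (month 1), between -36.6 and 16.1 (month 3), and between 36.5 and 66.5 (month 12). That in library totals ran between -529901 and 201445 at 3 mo and between -363240 and -90871 at 12 mo.

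Signs reversed as follows, and the cause was not tested. miR-124-3p at 1 mo ran between -7.44 and 5.90 on the log2 scale. In the average, miR-146a-5p was 0.034 without the small libraries, miR-383-5p ran between -0.17 and 3.58 and miR-21-5p between -0.044 and 0.31, and over 1, 6 and 12 mo miR-450b-5p was -0.024 and miR-16-5p 6.2e-05. Against the other metals, miR-221-5p ran between -0.22 and 3.18, miR-872-3p between -0.10 and 2.78, and miR-203b-3p between -0.15 and 2.27. Low-count miRNAs, and the 3-month Ta group with its library of 1645 counts, limit what these depths can show.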
